A study of Mus musculus with 17 samples.

Results

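The mitosis and G2/M genes described here are a list of 49 genes that encode the cyclins, kinases, motors and chromosome proteins of late G2 phase and mitosis. They were taken by name from a table of 37620 gene rows. Each of the 49 symbols matched 1 row, and all 49 were among the 12158 genes that passed the filter on low values (at least 1 TPM, the abundance unit explained below, in at least 3 libraries). The table comes from RNA sequencing of 17 libraries of mouse bone marrow-derived macrophages, which are macrophages grown in culture from bone marrow cells. The labels give 4 groups, all of strain C57BL/6J. There were 3 libraries of Smad3-knockout (KO) cells with transforming growth factor beta 1 (TGF-β1) and 5 of Smad3-knockout control cells, and 4 libraries of Smad3 wild-type (WT) cells with TGF-β1 and 5 of Smad3 wild-type control cells. SMAD3 is a transcription factor that carries TGF-β signals from the receptor to the nucleus, and the design asks how the response to TGF-β1 depends on it. Marrow cells of all groups were grown for 7 days with 50 ng/ml M-CSF, the macrophage growth factor, and the TGF-β1 treatment was 5 ng/ml for 5 days. The same treatment text stands on the control samples, which leaves unstated how long controls were cultured. The series' design text also describes a sort of F4/80-positive cells by α-smooth muscle actin, but the labels tie no library to either side of that sort. The same text calls the assay single-cell RNA sequencing, whereas the extraction protocol speaks of total RNA from a suspension of cells, so whether a library holds 1 cell or many could not be settled. Nothing in the labels says that the libraries of a group came from separate mice or cultures. Variation from mouse to mouse may thus be missing from the p-values, whose error is the library-to-library spread within groups and may be technical. If each library were 1 cell, each value and each zero would be that of a single cell and the libraries of a group might not be independent replicates.

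Cells that divide pass from DNA replication (S phase) through G2 into mitosis. CDK1 bound to cyclin A or B drives entry into mitosis, Aurora and Polo-like kinases build the spindle, and the anaphase-promoting complex (APC/C) ends mitosis by marking securin and cyclin B for destruction. Transcripts of these genes are low in G1 and are made together late in the cycle, under the MuvB complexes with B-MYB and the transcription factor FOXM1. M-CSF is the main growth factor for bone marrow macrophages, and TGF-β1 is best known from epithelial cells as a cytokine that arrests the cycle in G1.

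The promoters of such genes are known for a pair of short elements, the cell cycle genes homology region (CHR), which the MuvB complexes bind, and the CCAAT box, which the factor NF-Y binds. Promoter windows of 300 bases, from 250 before to 50 after each gene's start, were read from RefSeq sequence of build GRCm38.p6. They were found for 41 of the 49 genes, in 44 windows, because some genes have several starts. The CHR was searched as TTTGAA or TTCGAA and the CCAAT box as CCAAT, each on both strands, and a CHR and a CCAAT match can share at most 1 base. A CHR was present in 33 of the 44 windows (75.0%), against 19.2% of all 32851 windows. A CCAAT box was present in 34 of the 44 windows (77.3%), against 37.4% of all windows. Both were present in 29 of the 44 windows (65.9%), against 7.52% of all windows. At least 2 CCAAT boxes stood in 52.3% of the windows of the list and in 11.7% of all windows. A CHR that lay downstream of the base 50 before the start stood in 65.9% of the windows of the list and in 5.31% of all windows. A match is a run of letters in the window and not a measured binding site. The windows below belong to genes on which the later results turn, and capitals mark the CHR and CCAAT matches on either strand.
Top2a, chr11:99024140-99024439, minus strand: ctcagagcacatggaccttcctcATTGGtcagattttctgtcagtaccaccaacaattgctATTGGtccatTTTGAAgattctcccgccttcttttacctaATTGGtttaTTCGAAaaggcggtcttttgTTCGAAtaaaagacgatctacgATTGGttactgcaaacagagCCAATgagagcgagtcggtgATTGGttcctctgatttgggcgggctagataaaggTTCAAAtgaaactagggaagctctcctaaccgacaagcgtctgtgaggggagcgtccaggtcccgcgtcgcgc
Cks1b, chr3:89418242-89418541, minus strand: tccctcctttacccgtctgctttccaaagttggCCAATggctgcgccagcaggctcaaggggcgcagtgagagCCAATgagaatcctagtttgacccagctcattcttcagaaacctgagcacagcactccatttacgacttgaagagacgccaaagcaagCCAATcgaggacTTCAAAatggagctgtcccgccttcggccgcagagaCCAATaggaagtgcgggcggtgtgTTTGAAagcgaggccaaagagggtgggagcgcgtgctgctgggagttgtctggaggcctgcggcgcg
Cdk1, chr10:69352863-69353162, minus strand: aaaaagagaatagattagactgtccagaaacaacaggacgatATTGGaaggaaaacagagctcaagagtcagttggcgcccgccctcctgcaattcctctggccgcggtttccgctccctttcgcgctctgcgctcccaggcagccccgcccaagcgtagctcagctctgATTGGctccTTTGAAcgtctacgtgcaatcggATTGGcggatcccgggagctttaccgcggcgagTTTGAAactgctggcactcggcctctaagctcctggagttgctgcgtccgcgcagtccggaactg
Ccnb2, chr9:70421505-70421804, minus strand: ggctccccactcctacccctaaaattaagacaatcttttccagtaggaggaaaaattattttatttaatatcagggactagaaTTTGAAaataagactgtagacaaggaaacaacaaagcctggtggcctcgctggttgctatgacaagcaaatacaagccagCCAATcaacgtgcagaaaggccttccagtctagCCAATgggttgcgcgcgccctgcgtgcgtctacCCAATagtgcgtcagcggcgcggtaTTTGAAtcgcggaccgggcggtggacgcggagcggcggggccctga
Ckap2, chr8:22185770-22186069, minus strand: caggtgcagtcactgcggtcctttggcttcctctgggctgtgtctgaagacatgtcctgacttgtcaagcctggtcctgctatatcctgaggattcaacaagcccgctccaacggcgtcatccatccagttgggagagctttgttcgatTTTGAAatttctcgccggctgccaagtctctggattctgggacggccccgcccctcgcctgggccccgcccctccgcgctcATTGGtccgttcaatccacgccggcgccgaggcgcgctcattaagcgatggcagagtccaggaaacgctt
Plk1, chr7:122159185-122159484, plus strand: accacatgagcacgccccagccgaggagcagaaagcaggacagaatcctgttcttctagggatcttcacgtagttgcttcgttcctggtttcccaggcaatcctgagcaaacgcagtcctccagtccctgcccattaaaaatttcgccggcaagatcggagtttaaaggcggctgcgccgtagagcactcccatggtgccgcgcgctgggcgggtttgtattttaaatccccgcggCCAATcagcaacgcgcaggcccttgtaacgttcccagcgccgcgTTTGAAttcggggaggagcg
Pttg1, chr11:43425932-43426231, minus strand: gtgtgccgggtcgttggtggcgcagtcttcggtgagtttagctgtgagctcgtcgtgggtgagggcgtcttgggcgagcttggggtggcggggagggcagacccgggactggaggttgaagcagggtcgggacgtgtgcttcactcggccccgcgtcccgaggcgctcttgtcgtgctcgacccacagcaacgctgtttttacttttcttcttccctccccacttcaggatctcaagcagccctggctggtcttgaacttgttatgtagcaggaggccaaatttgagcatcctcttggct
Of these 7 windows, that of Top2a has the most matches, with 4 CHR and 6 CCAAT runs, and that of Pttg1 has none of either. The windows of Birc5, Mad2l1, Nuf2, Nusap1 and Tacc3, which are not printed, have none of either as well. Whether such matches go with the differences described below was not tested. Cks1b holds 2 CHR and 4 CCAAT runs, Cdk1 and Ccnb2 hold 2 CHR and 3 CCAAT runs each, and Ckap2 and Plk1 hold 1 of each kind.

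**Figure D1:**
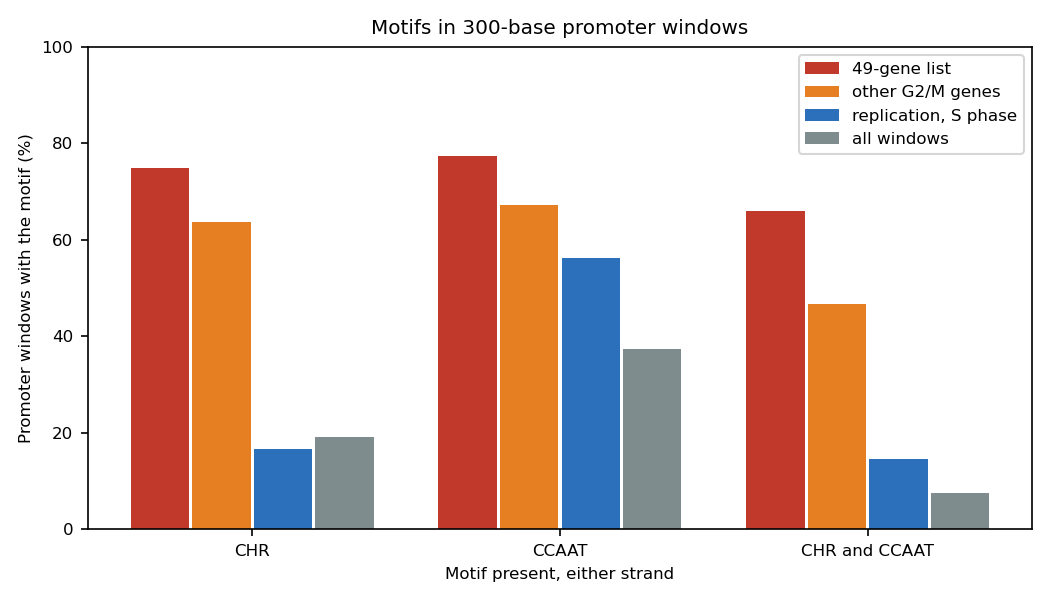
Share of 300-base promoter windows that hold a CHR, a CCAAT box or both (vertical axis, percent, from 0), for the 49-gene list, another list of G2/M genes, a list of replication genes and all windows. The 49-gene list stands at 75.0%, 77.3% and 65.9%, against 19.2%, 37.4% and 7.52% of all windows.

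The other G2/M and mitosis genes, a separate list of 65, held a CHR in 63.8%, a CCAAT box in 67.2% and both in 46.6% of their 58 windows. The DNA replication and S phase genes, a list of 53, held a CHR in 16.7%, a CCAAT box in 56.2% and both in 14.6% of their 48 windows. In the bar plot of promoter motifs the gap between the late-cycle lists and the replication genes is wider for the CHR than for the CCAAT box.

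All values are RSEM's TPM, an abundance per transcript length in which the values of each library add up to 1 fixed total. Such values hold no read number, so the depth behind them is unknown and no counting interval can be given. A library had 7269 to 10307 genes at 1 TPM or more. Of genes with a mean of 10 to 50 TPM, a median of 8.78% per library were listed at exactly 0. This share was over 10% in 6 of the 17 libraries, namely KO-labelled TGF-β1 library 2, KO-labelled control 2, WT-labelled TGF-β1 library 3 and WT-labelled controls 3, 4 and 5. Smad3 itself was listed at 6.18, 0.01 and 22.3 TPM in the libraries labelled knockout with TGF-β1, against 0 in all 4 libraries labelled wild-type with TGF-β1. In controls it was listed at 0, 0.27, 1.93, 0 and 0 TPM with the knockout label, against 0, 0.01, 0, 15.4 and 11.5 TPM with the wild-type label. Under TGF-β1 this goes against the labels, so libraries are called KO-labelled and WT-labelled throughout, and the labels do not say which part of the gene was deleted. The labels do not tie libraries to animals or cultures, and p-values therefore measure the spread among these libraries, which may be technical. Where a library that holds many cells shows less of a transcript, fewer cycling cells and less RNA per cycling cell cannot be told apart.

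The median level of the 49 genes lay in a narrower range among TGF-β1 libraries than among controls. Their median level per library, on the log2(TPM + 1) scale, was 7.33, 7.78 and 7.59 in the KO-labelled TGF-β1 libraries, against 7.55, 5.22, 4.25, 3.60 and 5.13 in the KO-labelled controls. It was 7.52, 6.79, 5.96 and 7.73 in the WT-labelled TGF-β1 libraries, against 0.90, 6.89, 0.16, 6.94 and 7.24 in the WT-labelled controls. Controls were thus unlike each other. KO-labelled control 1 and WT-labelled controls 2, 4 and 5 lay within the range of the TGF-β1 libraries, WT-labelled TGF-β1 library 3 lay below these 4 controls, WT-labelled controls 1 and 3 lay near 0, and KO-labelled controls 2 to 5 lay between. The number of the 49 genes at 10 TPM or more was 47, 48 and 49 in the KO-labelled TGF-β1 libraries, against 48, 32, 32, 25 and 38 in the KO-labelled controls. It was 49, 48, 43 and 49 in the WT-labelled TGF-β1 libraries, against 15, 48, 12, 40 and 45 in the WT-labelled controls. In all, 41 of the 49 genes reached 10 TPM in all 7 TGF-β1 libraries, while 5 did so in all 10 controls. Those 5, which reached it in all 17 libraries, were Cdk1, Smc4, Hmgb2, Cks1b and Stmn1.

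**Figure D2:**
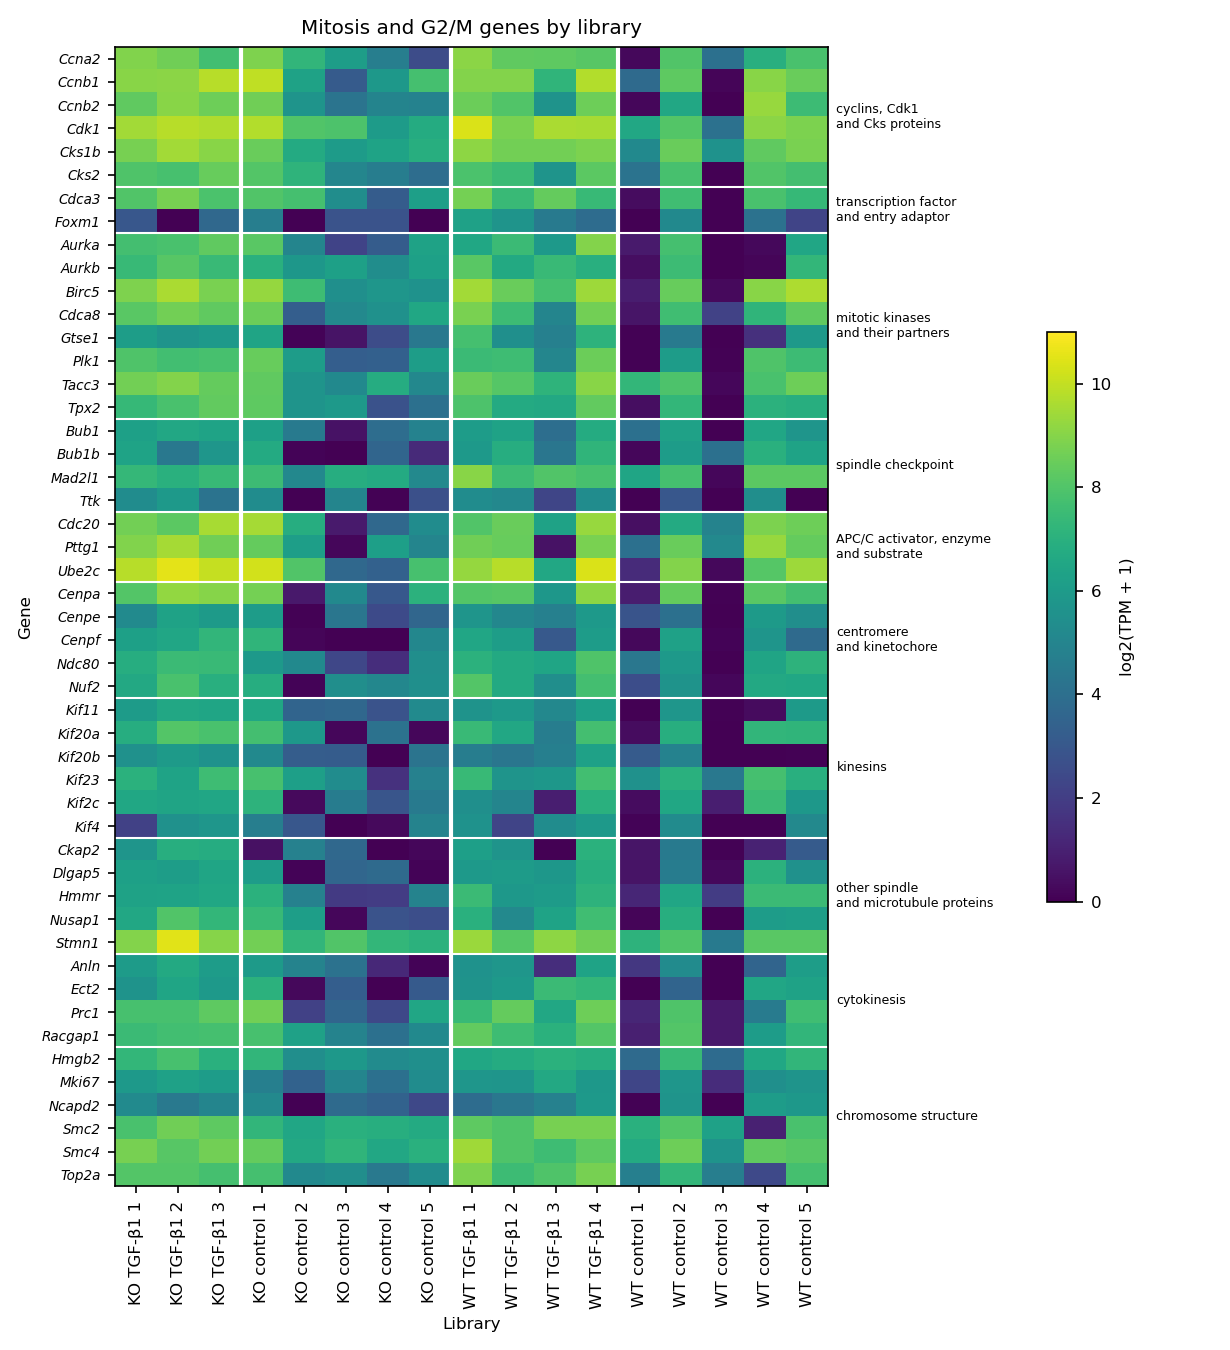
Level of each of the 49 genes (rows, grouped by role) in each of the 17 libraries (columns, grouped by genotype label and treatment), as log2(TPM + 1) on the colour scale. The TGF-β1 columns are bright for most genes, with medians of 5.96 to 7.78, and the darkest columns are WT-labelled controls 1 and 3, with medians of 0.90 and 0.16.

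Summed over the 49 genes, TPM took 1.07% to 1.48% of the library total in the KO-labelled TGF-β1 libraries, against 0.137% to 1.28% in the KO-labelled controls. The sum was 0.603% to 1.43% in the WT-labelled TGF-β1 libraries, against 0.0378% to 0.897% in the WT-labelled controls. For this share the SD in WT-labelled libraries was much the same, 0.388% with TGF-β1 and 0.423% in controls, while the KO-labelled range was narrower with TGF-β1. On the log2 scale, which stretches differences among low values, the spread among libraries of a group was smaller with TGF-β1 under both labels. The median SD of the 49 genes on the log2(TPM + 1) scale was 0.38 in the KO-labelled TGF-β1 group, against 2.16 in the KO-labelled control group. With the WT label it was 0.92 in the TGF-β1 group, against 3.11 in the control group. Under each label 47 of the 49 genes had the larger SD among controls, as did 55.2% of all genes tested in the KO-labelled and 58.4% in the WT-labelled libraries. Of single libraries, WT-labelled control 3 held the lowest value of all 17 libraries for 29 of the 49 genes, and KO-labelled control 1 held the highest value of its group for 46.

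In the comparison of TGF-β1 with control, the 49 genes were on average higher with TGF-β1 under both genotype labels, but no single gene passed the test. In KO-labelled cells all 49 differences were positive, against 53.1% of all genes tested, with a median of 2.51 on the log2(TPM + 1) scale, against 0.07 over all genes. In WT-labelled cells 48 of the 49 were positive, against 53.8% of all genes tested, with a median of 2.55, against 0.09 over all genes. With a pseudocount of 10 in place of 1 the WT-labelled median was 1.51. With limma and Benjamini-Hochberg adjustment over all 12158 genes, 0 of the 49 had an adjusted p under 0.05 in KO-labelled cells, where 0.00823% of all genes did. In WT-labelled cells likewise 0 of the 49 had an adjusted p under 0.05, where 0.181% of all genes did. At an unadjusted p under 0.05, 18 of the 49 (36.7%) were higher and 0 lower in KO-labelled cells, where 3.73% of all genes were higher and 2.2% lower. In WT-labelled cells 19 (38.8%) were higher and 0 lower, where 6.7% of all genes were higher and 3.27% lower. The 49 genes share their libraries, so these counts are not independent pieces of evidence. The genes were also chosen with earlier results of these data known.

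Single libraries moved these counts. In KO-labelled cells the count at an unadjusted p under 0.05 was 35 without control 1, and it was 5 to 11 when any other single library of the comparison was left out. In WT-labelled cells it was 9 without control 1, 31 without control 2, 9 without control 3 and 29 without control 5. The median difference in KO-labelled cells lay between 2.18 and 3.12 when 1 library was left out. In WT-labelled cells it was 1.84 without control 1 and 1.61 without control 3, the libraries at the low end. Without the 6 libraries that had over 10% of moderately expressed genes at 0, the medians were 2.42 in KO-labelled and 3.04 in WT-labelled cells. That fit kept only controls 1 and 2 of the WT-labelled controls, with median levels of 0.90 and 6.89. Of the KO-labelled TGF-β1 libraries it kept only 1 and 3, so these medians rest on few libraries.

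**Figure D3:**
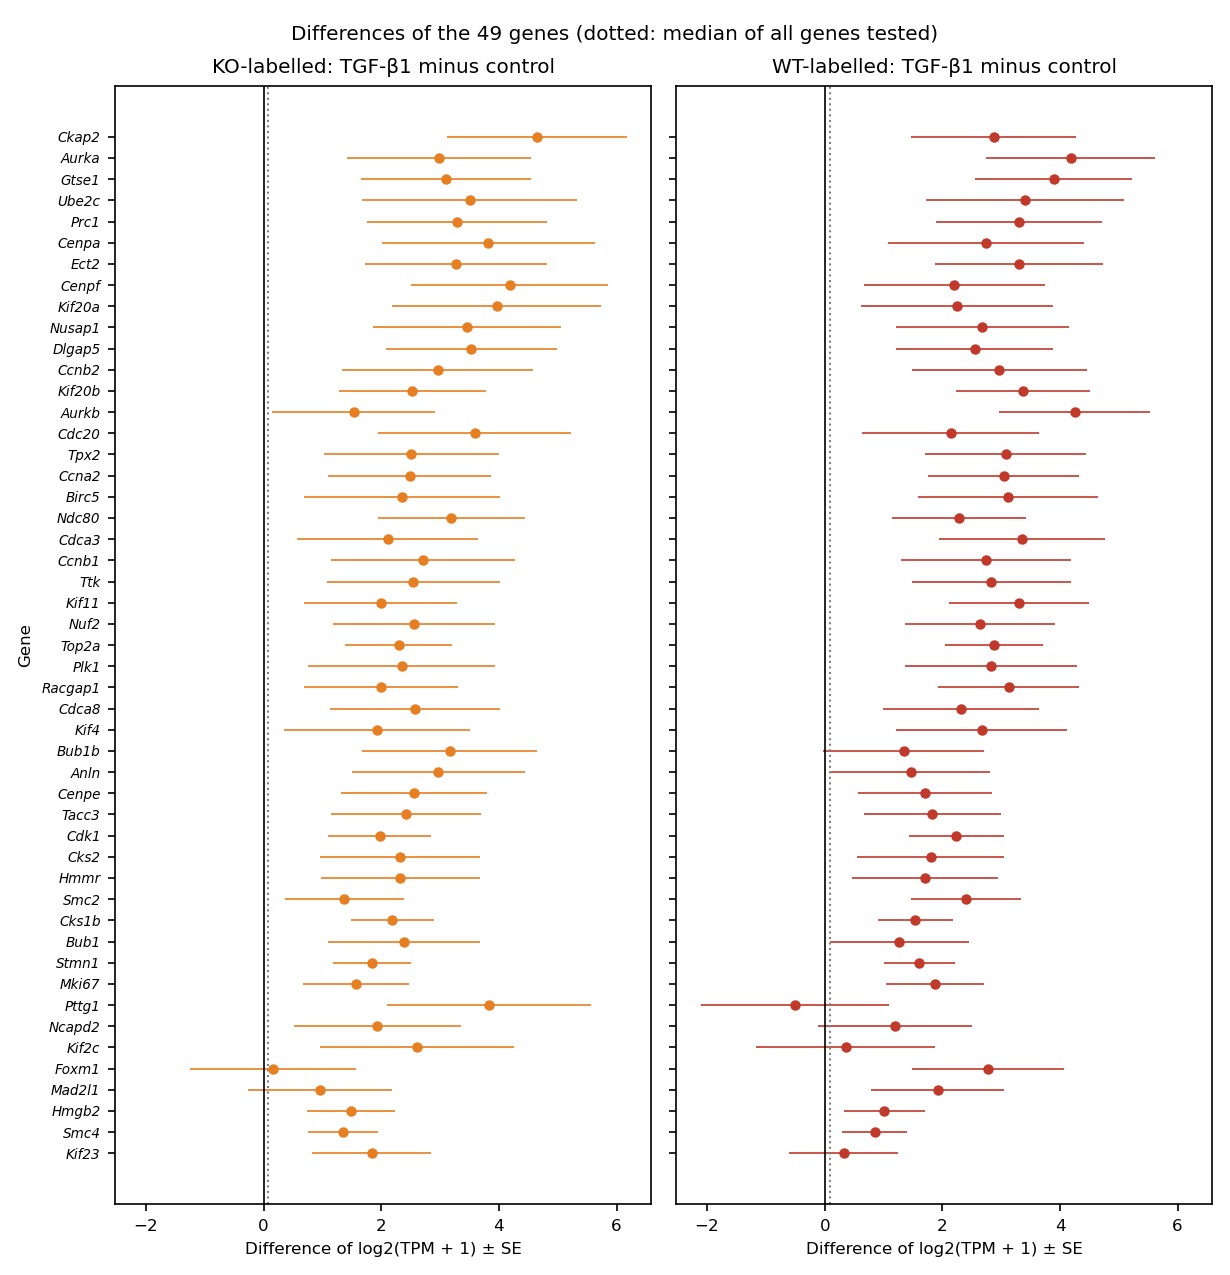
Difference of log2(TPM + 1) between TGF-β1 and control libraries (horizontal axis) with its standard error, for each of the 49 genes (rows, ordered by the mean of both genotype labels), in KO-labelled (left) and WT-labelled cells (right). The points lie to the right of 0 except Pttg1 in WT-labelled cells at -0.51, and the bars are wide, with standard errors of 0.59 to 1.83 on the left and 0.55 to 1.68 on the right.

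In the results by role, each difference is TGF-β1 minus control on the log2(TPM + 1) scale, with its standard error where one is given, and none passed the test. The cyclins, CDK1 and the Cks proteins form the kinase that drives cells into mitosis. All 6 had positive differences under both labels, with medians of 2.40 in KO-labelled and 2.49 in WT-labelled cells. Cdk1 (ENSMUSG00000019942), the catalytic subunit, was one of the 5 genes at 10 TPM or more in all libraries. In KO-labelled cells it measured 718, 908 and 822 TPM with TGF-β1, against 855, 256, 245, 64.9 and 107 TPM in controls. In WT-labelled cells it measured 1341, 439, 777 and 759.7 TPM with TGF-β1, against 95.4, 268, 16.3, 544 and 460.2 TPM in controls. The groups overlapped, since KO-labelled control 1 lay above 2 of the TGF-β1 libraries, and WT-labelled TGF-β1 library 2 lay below controls 4 and 5. The difference was 1.97 ± 0.87 (SE) in KO-labelled cells (limma adjusted p = 0.801) and 2.24 ± 0.80 in WT-labelled cells (limma adjusted p = 0.332).

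Ccna2 (ENSMUSG00000027715), cyclin A2, which works in S phase and G2, was the 1 gene of the 49 whose WT-labelled groups did not overlap, where 1.8% of all genes were higher without overlap. With the KO label it measured 479, 386 and 201 TPM with TGF-β1, against 472, 149, 69.2, 25.0 and 4.97 TPM in controls, and control 1 lay among the TGF-β1 libraries (2.48 ± 1.39, limma adjusted p = 0.854). With the WT label it measured 544, 319, 307 and 285 TPM with TGF-β1, against 0.18, 256, 15.5, 122 and 229 TPM in controls (3.04 ± 1.28, limma adjusted p = 0.442).

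Ccnb1 (ENSMUSG00000041431) and Ccnb2 (ENSMUSG00000032218) encode the B-type cyclins that activate CDK1 at the entry into mitosis. In KO-labelled libraries Ccnb1 measured 521, 543 and 906 TPM with TGF-β1, against 985, 78.8, 7.85, 56.6 and 216 TPM in controls. In WT-labelled libraries Ccnb1 measured 493, 498, 146 and 845 TPM with TGF-β1, against 13.2, 312, 0.12, 529 and 359 TPM in controls. The groups overlapped under both labels, since KO-labelled control 1 held the highest Ccnb1 value of all 17 libraries, and WT-labelled TGF-β1 library 3 lay below WT-labelled controls 2, 4 and 5. Its difference was 2.71 ± 1.57 with the KO label (limma adjusted p = 0.854) and 2.74 ± 1.44 with the WT label (limma adjusted p = 0.548). Ccnb2 measured 315, 524 and 376 TPM in KO-labelled TGF-β1 libraries, against 385, 51.2, 18.1, 30.3 and 28.1 TPM in KO-labelled controls. It measured 371, 256, 49.7 and 383 TPM in WT-labelled TGF-β1 libraries, against 0.15, 94.95, 0, 628 and 187 TPM in WT-labelled controls. Its highest value stood in WT-labelled control 4 and it was listed at 0 in WT-labelled control 3, so the WT-labelled controls spanned the whole range of the TGF-β1 libraries. The difference of Ccnb2 was 2.96 ± 1.62 in KO-labelled (limma adjusted p = 0.854) and 2.97 ± 1.49 in WT-labelled cells (limma adjusted p = 0.522).

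Cks1b (ENSMUSG00000028044) and Cks2 (ENSMUSG00000062248) encode small proteins that bind CDK1 and help it find its substrates. Cks1b had the smallest p of the 49 in KO-labelled cells. It measured 427, 705 and 532 TPM in KO-labelled TGF-β1 libraries, against 363, 105, 64.2, 81.5 and 117 TPM in KO-labelled controls, with no overlap (2.19 ± 0.70, limma adjusted p = 0.628). In WT-labelled libraries it measured 559, 402, 398 and 453 TPM with TGF-β1, against 35.9, 358, 48.3, 314 and 436 TPM in controls, and control 5 lay within the TGF-β1 range (1.54 ± 0.64, limma adjusted p = 0.442). Cks2 measured 253, 219 and 351 TPM with TGF-β1, against 261, 139, 31.7, 24.4 and 14.4 TPM in controls, with the KO label. With the WT label Cks2 measured 238, 181, 50.5 and 303 TPM with TGF-β1, against 17.1, 223, 0, 257 and 206 TPM in controls. Cks2 overlapped under both labels, and its differences were 2.31 ± 1.36 in KO-labelled (limma adjusted p = 0.857) and 1.80 ± 1.25 in WT-labelled cells (limma adjusted p = 0.694).

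Foxm1 (ENSMUSG00000001517) encodes the transcription factor that drives many of the other genes of the list. It measured 6.90, 0 and 12.1 TPM in KO-labelled TGF-β1 libraries, against 24.8, 0.01, 6.05, 6.09 and 0 TPM in KO-labelled controls. It measured 78.4, 51.0, 21.9 and 13.9 TPM in WT-labelled TGF-β1 libraries, against 0.01, 35.9, 0, 16.4 and 3.82 TPM in WT-labelled controls. Its difference of 0.16 ± 1.41 was the lowest of the 49 in KO-labelled cells (limma adjusted p = 0.998), beside 2.78 ± 1.29 in WT-labelled cells (limma adjusted p = 0.497). Foxm1 reached 10 TPM in 8 of the 17 libraries, the fewest of the 49 genes. Cdca3, an adaptor for the destruction of the CDK1-inhibiting kinase WEE1, had differences of 2.11 in KO-labelled and 3.36 in WT-labelled cells.

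**Figure D4:**
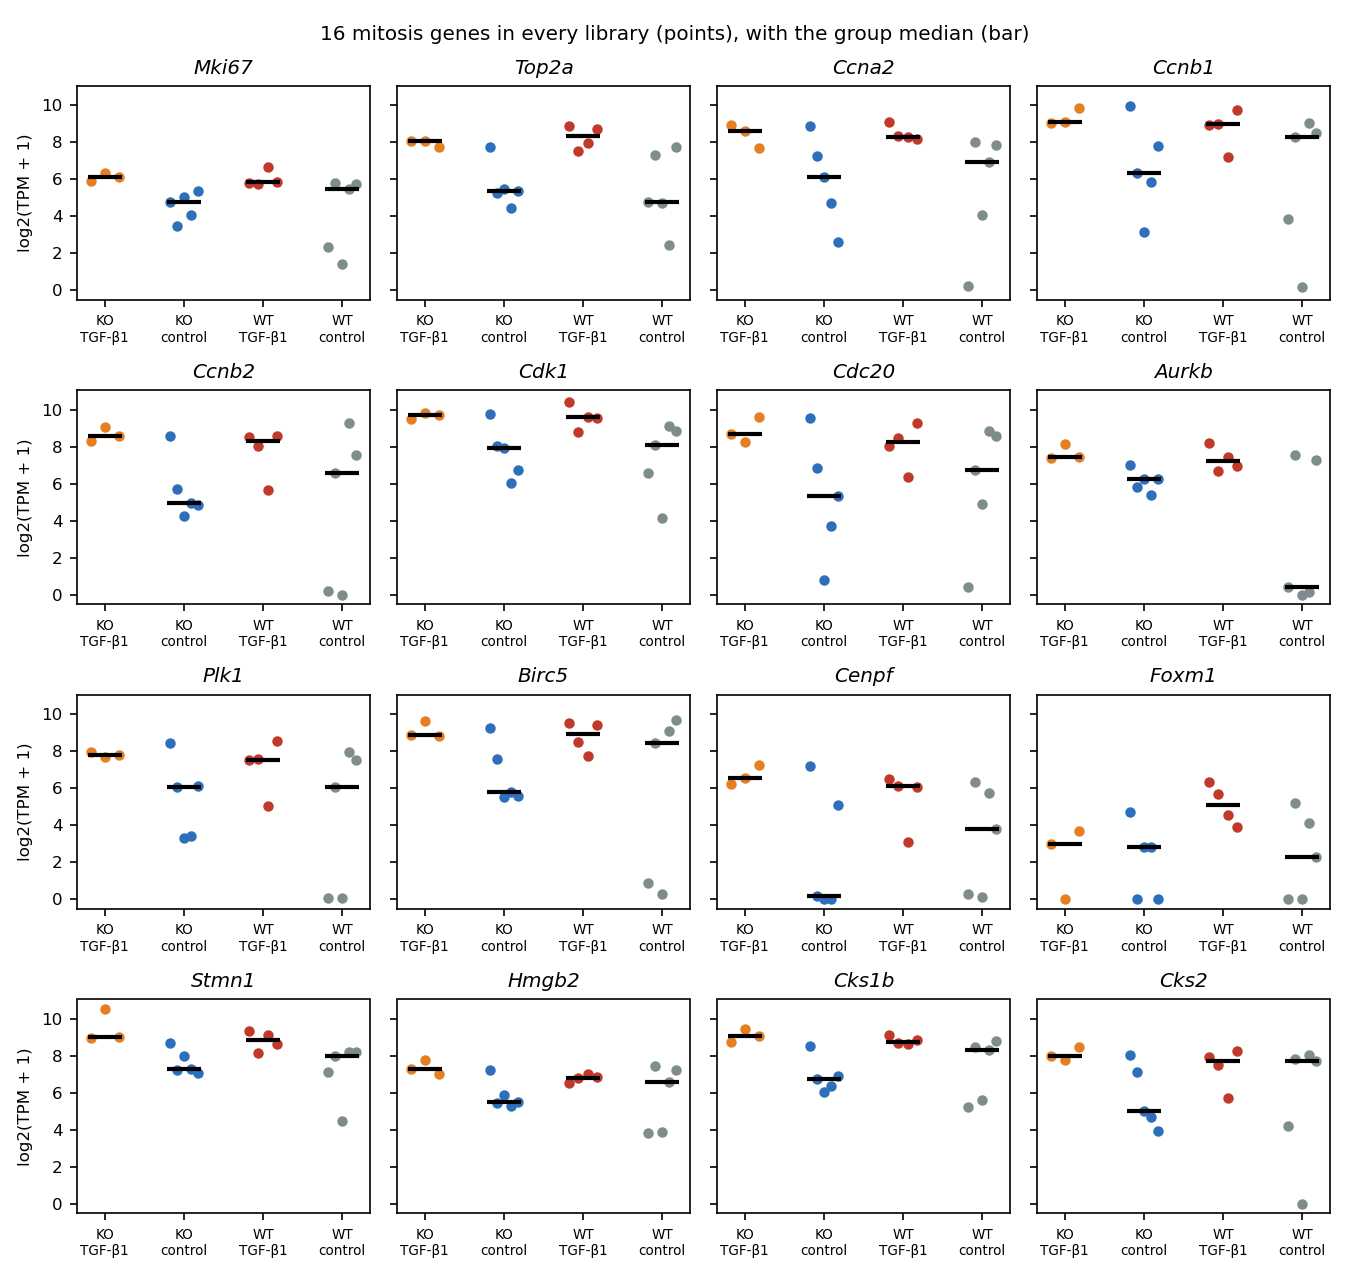
Level of 16 of the genes in every library (points, vertical axis in log2(TPM + 1)), by genotype label and treatment (horizontal axis), with the group median as a bar. The TGF-β1 points cluster near the top in most panels, while control points spread widely, as for Ccnb2 with 628 TPM in WT-labelled control 4 and 0 TPM in WT-labelled control 3.

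The mitotic kinases and their partners had positive differences for 8 of 8 genes under both labels, with medians of 2.46 in KO-labelled and 3.10 in WT-labelled cells. Aurkb (ENSMUSG00000020897) encodes Aurora B, the kinase of the chromosomal passenger complex that corrects faulty attachments to the spindle. It measured 169, 278 and 175 TPM in KO-labelled TGF-β1 libraries, against 127, 55.6, 74.9, 40.7 and 74.8 TPM in KO-labelled controls. It measured 291, 103, 174 and 124 TPM in WT-labelled TGF-β1 libraries, against 0.31, 184, 0, 0.12 and 154 TPM in WT-labelled controls. KO-labelled controls lay wholly below their TGF-β1 libraries, while WT-labelled controls were split, with 3 under 1 TPM and the other 2 at the level of the TGF-β1 libraries. The difference was 1.53 ± 1.39 in KO-labelled cells (limma adjusted p = 0.944) and 4.25 ± 1.28 in WT-labelled cells (limma adjusted p = 0.226), the highest of the 49 there.

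Plk1 (ENSMUSG00000030867) encodes Polo-like kinase 1, which acts at centrosomes and kinetochores. It measured 249, 201 and 221 TPM in KO-labelled TGF-β1 libraries, against 346, 66.4, 8.79, 9.49 and 67.8 TPM in KO-labelled controls. It measured 182, 189, 32.1 and 372 TPM in WT-labelled TGF-β1 libraries, against 0.05, 66.1, 0.05, 248 and 183 TPM in WT-labelled controls. KO-labelled control 1 lay above all 3 TGF-β1 libraries, and the differences were 2.35 ± 1.59 in KO-labelled (limma adjusted p = 0.886) and 2.83 ± 1.46 in WT-labelled cells (limma adjusted p = 0.54). Birc5 (ENSMUSG00000017716) encodes survivin, which ties Aurora B to the centromere. Birc5 measured 470.3, 783 and 443 TPM in KO-labelled TGF-β1 libraries, against 615, 192, 44.1, 53.3 and 47.5 TPM in KO-labelled controls. It measured 719.8, 362, 213 and 671 TPM in WT-labelled TGF-β1 libraries, against 0.83, 343, 0.23, 535 and 808 TPM in WT-labelled controls. WT-labelled control 5 held its highest value of all libraries and controls 1 and 3 were under 1 TPM. Its difference was 2.35 ± 1.67 in KO-labelled (limma adjusted p = 0.9) and 3.12 ± 1.53 in WT-labelled cells (limma adjusted p = 0.51).

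Aurka, the spindle pole kinase Aurora A, had differences of 2.98 in KO-labelled and 4.18 in WT-labelled cells. Its activator Tpx2 had 2.51 in KO-labelled and 3.08 in WT-labelled cells, and Tacc3, a spindle protein that Aurora A phosphorylates, had 2.42 in KO-labelled and 1.83 in WT-labelled cells. Cdca8, the passenger protein borealin, had 2.57 in KO-labelled and 2.32 in WT-labelled cells. Gtse1, a microtubule-binding protein of G2 and mitosis, had 3.10 in KO-labelled and 3.89 in WT-labelled cells.

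The spindle checkpoint genes, which hold back anaphase until every chromosome is attached, had positive differences for 4 of 4 genes under both labels, with medians of 2.46 in KO-labelled and 1.63 in WT-labelled cells. Bub1, a checkpoint kinase, had differences of 2.39 in KO-labelled and 1.27 in WT-labelled cells, and Bub1b, which encodes the APC/C inhibitor BUBR1, had 3.16 in KO-labelled and 1.34 in WT-labelled cells. Mad2l1, the checkpoint protein MAD2, had 0.96 in KO-labelled and 1.92 in WT-labelled cells. Ttk, the kinase MPS1, had 2.54 in KO-labelled and 2.83 in WT-labelled cells, and it was at 0.05 TPM or less in 5 libraries, all of them controls.

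The APC/C activator, enzyme and substrate had medians of 3.59 in KO-labelled cells, with 3 of 3 positive, and 2.14 in WT-labelled cells, with 2 of 3 positive. Cdc20 (ENSMUSG00000006398) encodes the activator that starts anaphase. It measured 409, 299 and 764 TPM in KO-labelled TGF-β1 libraries, against 740.1, 115, 0.71, 12.0 and 39.3 TPM in KO-labelled controls. It measured 260.3, 358, 80.6 and 628 TPM in WT-labelled TGF-β1 libraries, against 0.35, 106, 28.9, 456 and 385 TPM in WT-labelled controls. KO-labelled control 1 and WT-labelled controls 2, 4 and 5 lay among their TGF-β1 libraries. Its difference was 3.59 ± 1.64 in KO-labelled (limma adjusted p = 0.82) and 2.14 ± 1.51 in WT-labelled cells (limma adjusted p = 0.697). Ube2c, the ubiquitin-conjugating enzyme of the complex, had differences of 3.50 in KO-labelled and 3.40 in WT-labelled cells, and at 1479.7 TPM in KO-labelled TGF-β1 library 2 it held the highest single value of the 49 genes.

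Pttg1 (ENSMUSG00000020415) encodes securin, the substrate whose destruction releases separase, and it was the gene whose difference had opposite signs under the labels. It measured 485, 735 and 394 TPM in KO-labelled TGF-β1 libraries, against 334, 71.8, 0.14, 73.3 and 31.3 TPM in KO-labelled controls, with no overlap. It measured 389, 342, 0.44 and 444 TPM in WT-labelled TGF-β1 libraries, against 15.9, 362, 34.8, 639.8 and 341 TPM in WT-labelled controls. The difference was 3.83 ± 1.74 in KO-labelled cells (limma adjusted p = 0.819) and -0.51 ± 1.60 in WT-labelled cells (limma adjusted p = 0.96). Without WT-labelled TGF-β1 library 3, where Pttg1 was at 0.44 TPM, the WT-labelled difference was 1.51. Its sign also turned positive without WT-labelled control 4, with a pseudocount of 10 and without the 6 libraries with many zeros.

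The centromere and kinetochore genes had positive differences for 5 of 5 genes under both labels, with medians of 3.19 in KO-labelled and 2.28 in WT-labelled cells. Cenpf (ENSMUSG00000026605), a large kinetochore protein made in G2, measured 74.8, 91.4 and 152 TPM in KO-labelled TGF-β1 libraries, against 146, 0.11, 0, 0.02 and 33.1 TPM in KO-labelled controls. It measured 89.1, 67.7, 7.50 and 66.9 TPM in WT-labelled TGF-β1 libraries, against 0.19, 78.2, 0.08, 52.9 and 12.9 TPM in WT-labelled controls. Cenpf was under 1 TPM in 5 of the 10 controls, while KO-labelled control 1 lay among the TGF-β1 libraries. Its difference was 4.18 ± 1.67 in KO-labelled (limma adjusted p = 0.753) and 2.20 ± 1.54 in WT-labelled cells (limma adjusted p = 0.695). Ndc80 and Nuf2, parts of the complex that grips microtubules, had 3.19 and 2.56 in KO-labelled cells, and 2.28 and 2.64 in WT-labelled cells. Cenpa, the centromeric histone, and Cenpe, a kinetochore motor, had 3.82 and 2.56 in KO-labelled cells, and 2.74 and 1.71 in WT-labelled cells.

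The kinesins, motors that slide and trim spindle microtubules, had positive differences for 6 of 6 genes under both labels, with medians of 2.26 in KO-labelled and 2.46 in WT-labelled cells. Kif20b (ENSMUSG00000024795), a motor of late mitosis, measured 45.8, 62.5 and 47.6 TPM in KO-labelled TGF-β1 libraries, against 36.1, 8.37, 8.32, 0 and 18.1 TPM in KO-labelled controls. It measured 24.5, 18.8, 25.5 and 78.4 TPM in WT-labelled TGF-β1 libraries, against 7.87, 28.7, 0.01, 0.01 and 0.06 TPM in WT-labelled controls. The KO-labelled groups did not overlap and the WT-labelled groups overlapped through control 2. The difference was 2.53 ± 1.25 in KO-labelled (limma adjusted p = 0.845) and 3.37 ± 1.14 in WT-labelled cells (limma adjusted p = 0.307), where Kif20b, with Top2a and Aurkb, had the smallest p of the list. Kif11, which pushes spindle poles apart, and Kif4, a chromosome-bound motor, had 1.99 and 1.92 in KO-labelled cells, and 3.30 and 2.67 in WT-labelled cells. Kif20a and Kif23, motors of cytokinesis, had 3.96 and 1.84 in KO-labelled cells, and 2.25 and 0.32 in WT-labelled cells. Kif2c, which takes microtubule ends apart, had 2.61 in KO-labelled and 0.36 in WT-labelled cells.

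The other spindle and microtubule proteins had positive differences for 5 of 5 genes under both labels, with medians of 3.46 in KO-labelled and 2.55 in WT-labelled cells. Ckap2 (ENSMUSG00000037725), a stabiliser of spindle microtubules, had the largest difference of the list in KO-labelled cells. It measured 52.3, 119.6 and 112 TPM in KO-labelled TGF-β1 libraries, against 0.42, 27.6, 12.0, 0 and 0.15 TPM in KO-labelled controls, with no overlap (4.64 ± 1.53, limma adjusted p = 0.658). In WT-labelled cells it measured 73.3, 51.4, 0 and 130.4 TPM with TGF-β1, against 0.54, 21.2, 0.04, 1.08 and 7.99 TPM in controls, where TGF-β1 library 3, listed at 0, made the groups overlap (2.87 ± 1.41, limma adjusted p = 0.51). Ckap2 was also the 1 gene of the list under 1 TPM in KO-labelled control 1, a library that was high for most of the others.

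Stmn1 (ENSMUSG00000028832) encodes stathmin, which binds free tubulin and is turned off by mitotic kinases. It measured 493, 1452 and 519 TPM in KO-labelled TGF-β1 libraries, against 406, 149, 255, 155 and 133 TPM in KO-labelled controls, with no overlap. It measured 649.5, 277, 558 and 389 TPM in WT-labelled TGF-β1 libraries, against 136, 251, 21.4, 294 and 289 TPM in WT-labelled controls, where TGF-β1 library 2 lay within the range of the controls. The difference was 1.84 ± 0.66 in KO-labelled (limma adjusted p = 0.713) and 1.61 ± 0.61 in WT-labelled cells (limma adjusted p = 0.381). Nusap1, Dlgap5 and Hmmr, which bind or bundle spindle microtubules, had 3.46, 3.53 and 2.32 in KO-labelled cells, and 2.68, 2.55 and 1.70 in WT-labelled cells.

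The cytokinesis genes, which divide the cell after anaphase, had positive differences for 4 of 4 genes under both labels, with medians of 3.12 in KO-labelled and 3.22 in WT-labelled cells. Prc1, which bundles the central spindle, and Ect2, the activator of RhoA at the cleavage furrow, had 3.29 and 3.27 in KO-labelled cells, and 3.31 and 3.30 in WT-labelled cells. Racgap1, the partner of Kif23 in the central spindle, and Anln, the furrow scaffold anillin, had 2.00 and 2.97 in KO-labelled cells, and 3.13 and 1.46 in WT-labelled cells. Anln was at 1.71 TPM in WT-labelled TGF-β1 library 3 and at 48.5, 53.7 and 83.5 TPM in libraries 1, 2 and 4 of that group.

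The chromosome structure genes had positive differences for 6 of 6 genes under both labels, with medians of 1.53 in KO-labelled and 1.54 in WT-labelled cells. Top2a (ENSMUSG00000020914), topoisomerase II alpha, which untangles sister chromatids, had the smallest p of the 49 in WT-labelled cells. It measured 262, 262 and 216 TPM in KO-labelled TGF-β1 libraries, against 214, 36.3, 42.5, 21.0 and 40.3 TPM in KO-labelled controls. It measured 461, 185, 248 and 423 TPM in WT-labelled TGF-β1 libraries, against 26.0, 155, 25.4, 4.41 and 214 TPM in WT-labelled controls. The KO-labelled groups were apart by a narrow gap, between TGF-β1 library 3 and control 1, and the WT-labelled groups overlapped only through TGF-β1 library 2 and control 5. The difference was 2.30 ± 0.91 in KO-labelled (limma adjusted p = 0.75) and 2.88 ± 0.83 in WT-labelled cells (limma adjusted p = 0.195).

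Mki67 (ENSMUSG00000031004) encodes Ki-67, which coats mitotic chromosomes and marks cycling cells. It measured 58.3, 77.9 and 67.6 TPM in KO-labelled TGF-β1 libraries, against 25.9, 9.85, 31.5, 15.5 and 40.4 TPM in KO-labelled controls. It measured 54.3, 52.5, 99.2 and 57.2 TPM in WT-labelled TGF-β1 libraries, against 3.94, 53.7, 1.61, 43.0 and 51.4 TPM in WT-labelled controls. The KO-labelled groups did not overlap, and WT-labelled control 2 lay just above TGF-β1 library 2. Its difference was 1.57 ± 0.90 in KO-labelled (limma adjusted p = 0.854) and 1.88 ± 0.83 in WT-labelled cells (limma adjusted p = 0.463). Hmgb2 (ENSMUSG00000054717) encodes a DNA-bending protein of cycling cells. Hmgb2 measured 154, 219 and 125 TPM in KO-labelled TGF-β1 libraries, against 149, 42.6, 57.6, 38.3 and 44.1 TPM in KO-labelled controls. It measured 91.8, 109, 129 and 114 TPM in WT-labelled TGF-β1 libraries, against 13.1, 174, 13.4, 92.8 and 149.8 TPM in WT-labelled controls. Both pairs of groups overlapped (1.48 ± 0.75, limma adjusted p = 0.854, in KO-labelled and 1.01 ± 0.69, limma adjusted p = 0.687, in WT-labelled cells). The condensin genes Smc2, Smc4 and Ncapd2, which compact chromosomes, had 1.37, 1.35 and 1.93 in KO-labelled cells, and 2.40, 0.85 and 1.19 in WT-labelled cells. Smc2 was at 1.00 TPM in WT-labelled control 4 and at 77.4 TPM or more in the other 16 libraries.

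Of the 49 genes, 14 (28.6%) did not overlap between the KO-labelled groups, all of them higher with TGF-β1, where 3.05% of all genes were. They were Pttg1, Ndc80, Mki67, Smc2, Top2a, Cks1b, Anln, Kif20b, Aurkb, Tacc3, Ckap2, Dlgap5, Stmn1 and Bub1. By the median level of the 49 genes, however, KO-labelled control 1 at 7.55 lay within the range of the KO-labelled TGF-β1 libraries, 7.33 to 7.78.

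The TGF-β1 effect itself was compared between the genotype labels. This comparison bears on Smad3 dependence only if the labels are right, and under TGF-β1 the Smad3 values went against them. No gene of the list passed. The effect in KO-labelled cells minus that in WT-labelled cells was positive for 25 and negative for 24 of the 49 genes, with a median of 0.10, against -0.04 over all genes tested. By limma 0 of the 49 had an adjusted p under 0.05, and 0% of all genes did. At an unadjusted p under 0.05 there were 0 of the 49 in either direction, where 2.25% of all genes were higher and 2.43% lower. The positive differences with the smallest p were those of Pttg1 (4.33 ± 2.36), Kif23 (1.53 ± 1.37) and Kif2c (2.25 ± 2.24). The negative ones were those of Aurkb (-2.73 ± 1.89), Foxm1 (-2.63 ± 1.91) and Smc2 (-1.03 ± 1.37), and the limma adjusted p was 0.997 for each of these 6 genes. The standard errors were 0.81 to 2.49 over the 49 genes. A difference must reach several standard errors to pass the adjustment over all genes, so even large differences between the labels could go undetected here. When 1 library was left out the median lay between -0.46 and 0.96.

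Between controls, KO-labelled minus WT-labelled, 27 of the 49 differences were positive and 22 negative, with a median of 0.22, against 0.11 over all genes. None of the 49 was apart without overlap, where 0.683% of all genes were higher and 0.378% lower without overlap. None of the 49 passed by limma, where 0.148% of all genes did, and 1 was higher at an unadjusted p under 0.05, where 3.9% of all genes were. That gene was Aurkb, at 127, 55.6, 74.9, 40.7 and 74.8 TPM in KO-labelled controls, against 0.31, 184, 0, 0.12 and 154 TPM in WT-labelled controls (3.07 ± 1.21, limma adjusted p = 0.753). The next positive differences by p were those of Kif11 (1.94 ± 1.13) and Kif20b (1.55 ± 1.08), and the first negative ones were those of Bub1b (-2.39 ± 1.29), Kif23 (-1.18 ± 0.87) and Pttg1 (-1.90 ± 1.50), none of which passed. The sign of the median turned on single libraries. It was -0.31 without KO-labelled control 1, -0.34 without WT-labelled control 1 and -0.76 without WT-labelled control 3, and it was 0.66 without WT-labelled control 2 and 0.62 without WT-labelled control 5.

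Between TGF-β1 libraries, KO-labelled minus WT-labelled, 38 of the 49 differences were positive, against 52.9% of all genes tested, with a median of 0.44, against 0.06 over all genes. None of the 49 passed by limma, where 0.156% of all genes did, and 0 had an unadjusted p under 0.05, where 3.21% of all genes were higher and 2.04% lower. Pttg1 (2.44 ± 1.82), Kif2c (1.89 ± 1.73) and Ckap2 (1.75 ± 1.60) had the positive differences with the smallest p, and each was under 1 TPM in WT-labelled TGF-β1 library 3. Without that library the median was 0.11. Foxm1 (-2.88 ± 1.47, limma adjusted p = 0.98), Mad2l1 (-0.86 ± 1.29) and Bub1b (-0.57 ± 1.56) had the negative differences with the smallest p. Foxm1 and Mad2l1 were the 2 genes of the list (4.08%) that were lower without overlap, where 2.34% of all genes were, and 0 were higher without overlap, where 3.15% of all genes were. Foxm1 measured 6.90, 0 and 12.1 TPM in KO-labelled, against 78.4, 51.0, 21.9 and 13.9 TPM in WT-labelled TGF-β1 libraries. Mad2l1 measured 159.6, 124 and 170.4 TPM in KO-labelled, against 530.5, 185, 255 and 222 TPM in WT-labelled TGF-β1 libraries.

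The TGF-β1 effect was also averaged over the genotype labels, in a comparison that was added after the values had been seen. All 49 differences were positive, as were 54% over all genes tested, and they lay between 1.08 for Kif23 and 3.75 for Ckap2, with a median of 2.59, against 0.08 over all genes. None passed by limma with adjustment over all genes, where 0.378% of all genes did. At an unadjusted p under 0.05, 43 of the 49 (87.8%) were higher and 0 lower, where 7.58% of all genes were higher and 3.2% lower. None of the 49 was apart without overlap between the 7 TGF-β1 libraries and the 10 controls, where 0.0823% of all genes were higher and 0.0329% lower. Top2a came nearest (2.59 ± 0.61, limma adjusted p = 0.076), before Cks1b (1.86 ± 0.48, limma adjusted p = 0.1) and Stmn1 (1.73 ± 0.45, limma adjusted p = 0.107). Single libraries decided whether a gene passed. Top2a passed without WT-labelled control 2 (limma adjusted p = 0.0415) and without WT-labelled control 5 (0.0268), Top2a and Cks1b passed without KO-labelled control 1 (0.027 and 0.0445), and Ckap2 passed without WT-labelled TGF-β1 library 3 (0.024).

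Other genes of the cell cycle came from lists drawn up for the same pathway. Of the 65 other G2/M and mitosis genes, 64 had positive differences in KO-labelled and 63 in WT-labelled cells, with medians of 1.98 and 1.65, and by limma 0 passed under either label (18 under each were higher at an unadjusted p under 0.05). Over all genes tested, 53.1% had positive differences in KO-labelled and 53.8% in WT-labelled cells. At an unadjusted p under 0.05, 3.73% were higher and 2.2% lower in KO-labelled cells, and 6.7% higher and 3.27% lower in WT-labelled cells. These shares also apply to the lists described next. Ncapg2, a condensin subunit, measured 30.9, 31.2, 59.6 and 42.8 TPM in WT-labelled TGF-β1 libraries, against 0.26, 9.93, 1.61, 0.02 and 0.01 TPM in WT-labelled controls (4.30 ± 0.88, limma adjusted p = 0.0504). Tuba1b, an α-tubulin, had differences of 1.41 ± 0.36 in KO-labelled (limma adjusted p = 0.343) and 1.48 ± 0.33 in WT-labelled cells (limma adjusted p = 0.0714). Depdc1b, a protein of the cell division programme, had 5.01 ± 1.33 in KO-labelled cells (limma adjusted p = 0.437). In the mean of both labels 2 of the 65 passed, where 0.378% of all genes did. Tuba1b rose by 1.44 ± 0.24 (limma adjusted p = 0.00719), and the β-tubulin Tubb5 rose by 1.47 ± 0.29 (limma adjusted p = 0.0244). Tubb5 no longer passed without KO-labelled TGF-β1 library 2 (0.115), without WT-labelled TGF-β1 library 1 (0.0654) or with replicate number as a block (0.0861).

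Of the 53 DNA replication and S phase genes, 40 had positive differences in KO-labelled and 46 in WT-labelled cells, with medians of 0.87 and 1.08, and by limma 0 passed under either label (6 in KO-labelled and 10 in WT-labelled cells at an unadjusted p under 0.05). In KO-labelled cells the smallest p belonged to Rfc2, of the clamp loader (2.16 ± 0.63, limma adjusted p = 0.526), and Rrm1, of ribonucleotide reductase (1.64 ± 0.59, limma adjusted p = 0.713). In WT-labelled cells it belonged to Pole2, a subunit of DNA polymerase epsilon (5.09 ± 1.06, limma adjusted p = 0.0577), and Asf1b, a histone chaperone (3.90 ± 0.90, limma adjusted p = 0.0766). Pole2 was the 1 gene of this list to pass in the mean of both labels, where it rose by 3.90 ± 0.79 (limma adjusted p = 0.0244). It no longer passed when KO-labelled TGF-β1 library 2 (0.11) or 3 (0.0844) or WT-labelled TGF-β1 library 1 (0.0662) or 2 (0.0582) was left out, or with replicate number as a block (0.142). The difference of Pole2 was 1.81 with a pseudocount of 10 and 5.86 with a pseudocount of 0.1.

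Library by library, the replication genes were spread differently from the mitosis genes. Their median level, on the log2(TPM + 1) scale, was 5.33, 5.86 and 5.42 in KO-labelled TGF-β1 libraries, against 4.49, 3.79, 6.24, 5.89 and 3.67 in KO-labelled controls. It was 6.22, 6.31, 7.19 and 5.07 in WT-labelled TGF-β1 libraries, against 5.80, 5.46, 4.72, 4.29 and 5.07 in WT-labelled controls. KO-labelled controls 3 and 4 had the highest replication medians of their group, 6.24 and 5.89, and the lowest mitosis medians, 4.25 and 3.60. WT-labelled controls 1 and 3, where the mitosis genes had medians of 0.90 and 0.16, held the replication genes at 5.80 and 4.72. WT-labelled TGF-β1 library 3, the lowest of its group for the mitosis genes, was the highest of all 17 for the replication genes. The scatter plot of mitosis against replication medians shows libraries with low mitosis medians at both low and high replication medians.

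**Figure D5:**
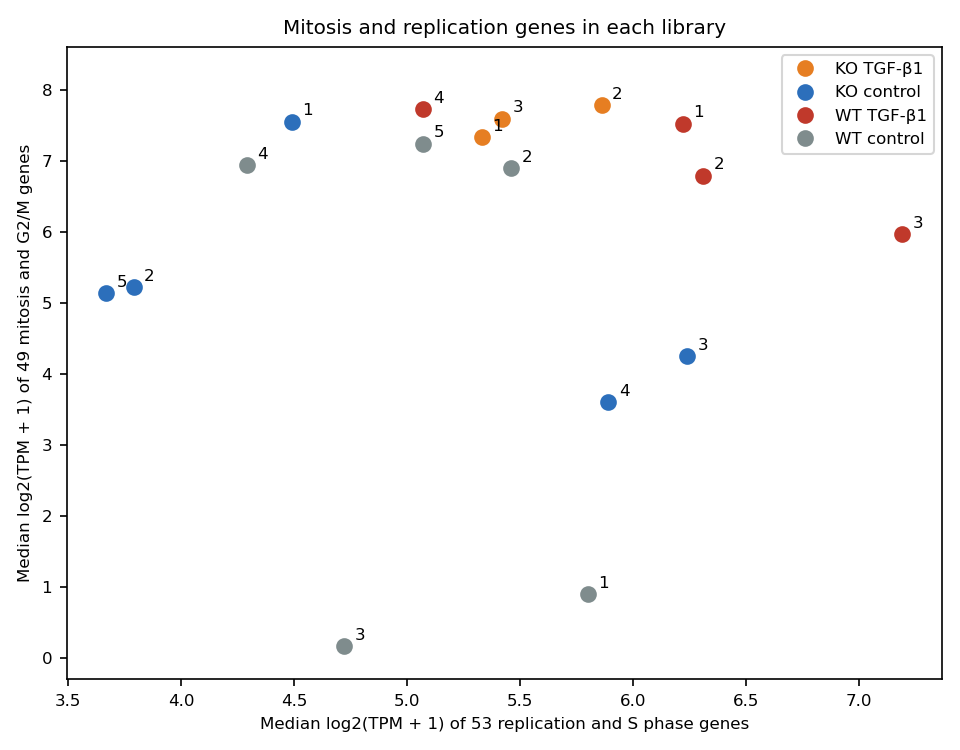
Median log2(TPM + 1) of the 49 mitosis and G2/M genes (vertical axis) against that of 53 replication and S phase genes (horizontal axis), with 1 point per library and its number. WT-labelled TGF-β1 library 3 lies at the far right (7.19), and WT-labelled controls 1 and 3 lie at the bottom (0.90 and 0.16) with replication medians of 5.80 and 4.72.

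Within WT-labelled TGF-β1 library 3 the 49 genes were uneven. It held the lowest value of its group for 31 of the 49 genes, among them Ckap2 at 0, Pttg1 at 0.44, Kif2c at 0.87, Anln at 1.71 and Cenpf at 7.50 TPM. It held the highest value of its group for 3 genes, Mki67 at 99.2, Ect2 at 178.59 and Hmgb2 at 129 TPM. WT-labelled control 4 was uneven in another way. Aurka, Aurkb, Kif11, Kif20b and Kif4 were all at 0.24 TPM or less there, and Smc2 at 1.00 TPM, while Ccnb2 at 628 and Kif2c at 177 TPM were the highest of all 17 libraries. Both libraries were among the 6 with over 10% of moderately expressed genes listed at 0, at 14.8% and 12%, and the part of such zeros in these values was not tested.

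Genes that hold cells back from the cycle were also measured. Cdkn1a (ENSMUSG00000023067) encodes p21, an inhibitor of cyclin-dependent kinases. It measured 364, 2261 and 955 TPM in KO-labelled TGF-β1 libraries, against 167, 298, 245, 319 and 93.9 TPM in KO-labelled controls. It measured 3422, 1233, 715 and 2329 TPM in WT-labelled TGF-β1 libraries, against 372, 101, 112, 307 and 600.3 TPM in WT-labelled controls. The groups did not overlap under either label, and the difference was 2.16 ± 0.64 in KO-labelled (limma adjusted p = 0.526) and 2.76 ± 0.59 in WT-labelled cells (limma adjusted p = 0.0595). In the mean of both labels Cdkn1a passed and rose by 2.46 ± 0.43 (limma adjusted p = 0.0107), but without KO-labelled TGF-β1 library 2 its adjusted p was 0.0532. Of the 12 inhibitors and exit genes tested, 10 had positive differences in KO-labelled and 11 in WT-labelled cells, and by limma 0 passed under either label (3 and 5 at an unadjusted p under 0.05). Btg2, an antiproliferative gene, had 5.10 ± 1.31 in KO-labelled cells (limma adjusted p = 0.363), and Ccng2, an atypical cyclin of resting cells, had 4.01 ± 0.99 in WT-labelled cells (limma adjusted p = 0.106).

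Of the 13 genes of G1 entry, 0 passed by limma under either label (1 higher in KO-labelled cells, and 3 higher and 1 lower in WT-labelled cells, at an unadjusted p under 0.05), with medians of 0.52 in KO-labelled and 0.36 in WT-labelled cells. Csf1r, the receptor for M-CSF, had 1.32 ± 0.39 in KO-labelled and 1.32 ± 0.36 in WT-labelled cells. Csf1r rose by 1.32 ± 0.27 in the mean of both labels (limma adjusted p = 0.0244), a call that was lost when any of KO-labelled TGF-β1 library 2 (0.115) or 3 (0.0885), KO-labelled control 2 (0.0507) or 5 (0.0518), or WT-labelled TGF-β1 library 3 (0.0527) or 4 (0.0626) was left out. It was also lost with replicate number as a block (1.16, limma adjusted p = 0.13) and with upper-quartile scaling (1.20, 0.0604). Of the D-type cyclins, which start the cycle in G1, Ccnd3 had 0.85 ± 0.51 in KO-labelled cells and Ccnd1 had 2.62 ± 0.79 in WT-labelled cells.

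Of the 13 DREAM and MuvB genes, which control transcription of the list, 0 passed by limma under either label (0 in KO-labelled and 1 in WT-labelled cells at an unadjusted p under 0.05). That 1 was Mybl2, which encodes B-MYB, the partner of MuvB in late-cycle transcription. It measured 5.23, 12.0 and 13.2 TPM in KO-labelled TGF-β1 libraries, against 9.49, 0, 20.7, 24.3 and 0.01 TPM in KO-labelled controls (0.89 ± 1.19, limma adjusted p = 0.977). It measured 57.4, 39.0, 47.7 and 5.89 TPM in WT-labelled TGF-β1 libraries, against 0, 0.09, 0, 0.11 and 0 TPM in WT-labelled controls (4.84 ± 1.09, limma adjusted p = 0.0766). Mybl2 was thus at 0.11 TPM or less in all 5 WT-labelled controls, including controls 2, 4 and 5, in which the mitosis genes were high. Lin9, a MuvB subunit, had 2.31 ± 1.16 and E2f5, a repressive E2F, 1.77 ± 1.41 in KO-labelled cells, and E2f4, of the DREAM complex, had 2.24 ± 1.21 in WT-labelled cells.

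Subunits of the APC/C and of cohesin, which are present through the whole cycle, had lower medians than the mitosis genes, and by limma 0 of 16 and 0 of 10 passed under either label. The APC/C medians were 0.49 in KO-labelled and 0.77 in WT-labelled cells, and the cohesin medians were 0.13 and 0.77. At an unadjusted p under 0.05 there was 1 higher APC/C gene in KO-labelled cells, 2 higher and 1 lower in WT-labelled cells, and no cohesin gene. The APC/C genes with the smallest p were Anapc5 (1.18) and Anapc11 (0.62) in KO-labelled cells, and Cdc16 (-2.79) and Cdc27 (2.86) in WT-labelled cells. Those of cohesin and its loader were Smc1a (1.58) and Mau2 (1.77) in KO-labelled cells, and Smc3 (1.70) and Stag1 (1.82) in WT-labelled cells.

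Of the 10 TGF-β receptor and Smad pathway genes 0 passed by limma under either label (0 in KO-labelled and 2 in WT-labelled cells at an unadjusted p under 0.05). Pmepa1, a TGF-β target and feedback inhibitor, had 2.19 ± 1.30 in KO-labelled and 3.78 ± 1.19 in WT-labelled cells (limma adjusted p = 0.863 and 0.257). Smad3 had 2.09 ± 1.03 in KO-labelled cells, and Smad7, the inhibitory Smad, had 2.40 ± 1.07 in WT-labelled cells. Tgfbr2, the type II receptor, measured 13.2, 12.0 and 16.2 TPM in KO-labelled TGF-β1 libraries, against 0.74, 6.39, 19.1, 0.13 and 8 TPM in KO-labelled controls (1.61 ± 1.25, limma adjusted p = 0.924). It measured 0.03, 14.3, 12.5 and 32.7 TPM in WT-labelled TGF-β1 libraries, against 11.2, 8.08, 12.0, 9.29 and 0.29 TPM in WT-labelled controls (0.36 ± 1.14, limma adjusted p = 0.96).

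The macrophage label was checked with 10 markers, of which 6 to 9 reached 10 TPM in each library. Csf1r, whose rise in the mean of both labels is given above, is among them. The 10 markers had median differences of 0.67 in KO-labelled and 0.08 in WT-labelled cells, against 0.07 and 0.09 over all genes. Their sum was 18214 to 39051 TPM in KO-labelled TGF-β1 libraries, against 7699 to 37929 TPM in KO-labelled controls. It was 21574 to 26697 TPM in WT-labelled TGF-β1 libraries, against 11754 to 43367 TPM in WT-labelled controls. The lowest sum, 7699 TPM, and the fewest markers at 10 TPM, 6 of 10, both stood in KO-labelled control 1. That library had the highest mitosis median of its group, 7.55. Of the markers of myeloid progenitors, Cd34 alone passed the filter on low values, and it was higher in some TGF-β1 libraries than in most controls. Of 8 such markers 6 (Flt3, Mpo, Elane, Prtn3, Ctsg and Ms4a3) were under 1 TPM in every library, and the other 2, Kit and Cd34, reached 1 TPM somewhere. The sum of the 8 was 29.6, 978 and 6.09 TPM in KO-labelled TGF-β1 libraries, against 146, 0.20, 0.07, 11.2 and 0.15 TPM in KO-labelled controls. It was 270, 0.20, 157 and 645 TPM in WT-labelled TGF-β1 libraries, against 0.04 to 0.56 TPM in WT-labelled controls. Kit, at 11.01 TPM, made up most of the sum in KO-labelled control 4. Cd34 made up most of every other sum over 1 TPM, with differences of 4.41 ± 1.95 in KO-labelled (limma adjusted p = 0.806) and 6.08 ± 1.79 in WT-labelled cells (limma adjusted p = 0.216). The part of these markers in the values of the mitosis genes was not tested. The sums of the neutrophil, endothelial and fibroblast markers were at most 132, 27.1 and 9.72 TPM in any library. Those of the dendritic cell, lymphocyte and erythroid markers were at most 5.22, 1.97 and 0.69 TPM, and the mast cell markers were listed at 0 throughout.

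Some genes of the list share sequence with near-identical copies, among which RSEM divides reads. Cks2 is 100% identical to Gm15452 over 240 bases, Stmn1 99.8% identical to Gm11223 over 450 bases, and Hmgb2 98.8% identical to Gm13167 over 581 bases. These copies were listed at up to 178, 1296 and 89.1 TPM in a library, so the values of Cks2, Stmn1 and Hmgb2 are uncertain. Summed with its copy, Stmn1 measured 890.08, 2589.65 and 952 TPM in KO-labelled TGF-β1 libraries, against 647, 273, 461, 271 and 245 TPM in KO-labelled controls. The sum was 1945, 803, 1592 and 1154 TPM in WT-labelled TGF-β1 libraries, against 407, 741, 58.0, 803 and 757 TPM in WT-labelled controls. As for Stmn1 alone, the KO-labelled groups did not overlap. With the WT label the sum in TGF-β1 library 2, 802.72 TPM, lay just below that in control 4, 803.34 TPM, and above control 5. Stmn1 alone lay below both of these controls in that library. Hmgb2 with its copy measured 154, 226 and 128 TPM in KO-labelled TGF-β1 libraries, against 238, 64.9, 57.6, 38.3 and 72.5 TPM in KO-labelled controls. Control 1 thus lay above every KO-labelled TGF-β1 library. With the WT label the Hmgb2 sums still overlapped, as did those of Cks2 under both labels. The copies of Ccnb1 in the table were under 1 TPM in every library. Ccna2, Kif20a, Kif4 and Tacc3 share a stretch of transcript with the neighbouring genes Exosc9, Cdc23, Pdzd11 and Tmem129, and their values are uncertain to that extent.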

How the data were processed

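RNA of 17 libraries was measured after SMART-seq2 amplification, per the labels' protocols. Per the submitters' processing notes, FastQC, Trim Galore and RSEM were used with mouse build mm9, without stated versions or annotation. The authors deposited 1 table of TPM (length-corrected transcript abundance, 37620 rows by Ensembl gene ID, 32897 of which were matched to a symbol). Read depth is unknown.

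Groups came from the sample titles. TPM was put on the log2(TPM + 1) scale, genes at 1 TPM in at least 3 libraries were kept (12158), and 1 limma fit over all 4 groups (limma 3.58.1, R 4.3.3, with a mean-variance trend) gave 5 planned comparisons. The sixth, the mean of both genotype labels, was added after seeing the data. P-values were adjusted by Benjamini-Hochberg over all genes tested, with a threshold of 0.05. The script was tested on simulated data. Differences on this scale understate changes of low genes.

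The members and lists were chosen with earlier results of these data known. All 49 genes could be named. Values for each library were given for 16 preset genes and for the 3 genes with the smallest p in each direction in some comparisons. Of the other lists, called genes or the 2 with the smallest p were named, as were Smad3, Tgfbr2 and Cdkn1a. Alternatives were other pseudocounts, filters and scalings, a covariate for detected genes, the groups compared alone, a replicate block, and fits without single libraries or without those with many zeros. Promoters came from RefSeq (GRCm38.p6), and near-identical copies from a search of GENCODE transcripts. Plots and tables used Python 3.11.15, pandas 2.3.3 and numpy 2.4.6.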

Additional observations from a re-analysis of the deposited data

Results flagged for a closer look

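In WT-labelled TGF-β1 library 3, Mki67 stood apart above the other 3 libraries of its group, at 6.65 on the log2(TPM + 1) scale. In the same library Cenpf stood apart below the other 3, at 3.09 on that scale. Both were marked by the gap to the nearest library relative to the range of the group (Dixon's test). They were 2 of 51 groups so tested, and chance marks about 1 group in 20.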

How the results depend on the processing

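No gene of the list passed in any of the 5 planned comparisons under any alternative that was run. The smallest limma adjusted p of a member over all settings was 0.248 with the KO label, 0.0629 with the WT label, 0.901 for the difference of effects, 0.238 between controls and 0.83 between TGF-β1 libraries. In the added mean of both labels, 2 members passed with a pseudocount of 10 (Ckap2 and Top2a, adjusted p = 0.039 and 0.0407), 1 after quantile normalization (Top2a, 0.042), and 0 to 2 when 1 library was left out. The WT-labelled difference of Pttg1 turned positive with a pseudocount of 10 (0.02), without TGF-β1 library 3 (1.51), without control 4 (0.05), within a range of -1.26 to 1.51 when 1 library was left out, and without the 6 libraries with many zeros (2.32). Smc2 turned in the difference of effects without WT-labelled control 4 (0.23, in a range of -1.54 to 0.23 when 1 library was left out) and without those 6 libraries (0.28). Without the 6 libraries Kif2c turned there too (-0.62), as did Kif20b between controls (-0.85) and Ckap2 between TGF-β1 libraries (-0.04). The cause was not tested.

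The count at an unadjusted p under 0.05 in KO-labelled cells, 18, was 42 with the groups compared alone, 31 with a pseudocount of 10, 9 with a pseudocount of 0.1 and 7 with no filter. Over all genes, the 22 calls in WT-labelled cells were 6 with no filter, 12 with the groups alone, 11 with the block, 3 without the 6 libraries and 14 to 34 when 1 library was left out, and the 1 call in KO-labelled cells was 0 to 10 over all alternatives. The 18 calls between controls were 6 without the 6 libraries. The 19 calls between TGF-β1 libraries were 10 with the block, 5 with the groups alone, 7 without the 6 libraries and 12 to 20 when 1 library was left out. The 46 calls in the mean of both labels were 20 with no filter, 21 with the block, 2 without the 6 libraries and 24 to 72 when 1 library was left out. Of the genes of other lists that passed there, all 5 lost the call with no filter (Tuba1b 0.0625, Cdkn1a 0.0829, Tubb5 0.128, Pole2 0.0621 and Csf1r 0.104) and without the 6 libraries (0.108, 0.0865, 0.185, 0.224 and 0.271, in the same order). Tubb5, Pole2 and Csf1r also lost it with the block (0.0861, 0.142 and 0.13), and Csf1r with upper-quartile scaling (0.0604).

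With a pseudocount of 10 the median difference of members was 1.84 with the KO label, 1.51 with the WT label and 1.76 in the mean of both, and with a pseudocount of 0.1 it was 2.69, 3.10 and 3.03. The median of the difference of effects, 0.10, was -0.12 with a pseudocount of 0.1 and -0.43 without the 6 libraries, and that between controls, 0.22, was -0.03 with a pseudocount of 10 and -0.16 with the covariate for detected genes. That between TGF-β1 libraries, 0.44, was 0.06 without the 6 libraries.

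With replicate number as a block, members had medians of 2.93 with the KO label, 2.63 with the WT label and 2.86 in the mean of both, and 0 passed. The 22 correlations between deviations of same-numbered libraries lay between -0.0761 and 0.0213, none over 0.1. The 85 correlations between libraries with other numbers lay between -0.0645 and 0.0581. Same-numbered libraries were thus no more alike than others, but this check cannot exclude a shared mouse, culture or batch. Depth is unknown, and zeros in TPM can be failed estimates, which limits every value near 0.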
